A study of Mus musculus with 2 samples.

Results

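Mir143, Mir145a and Mir145b are the mouse genes of the microRNAs miR-143 and miR-145, which are best known from smooth muscle. They were chosen by gene identity: all 3 genes were found among the 2202 microRNA genes of each count table by their Ensembl identifiers in GENCODE M21. Small RNA, whose size range the labels give as under 30 with no unit, was sequenced from heart tissue of adult female mice, 8 to 10 months old and labelled 5xFAD/CAST. The name 5xFAD stands for a transgenic line used to study Alzheimer disease, and CAST for a strain derived from wild mice. The labels do not say whether these mice carried the transgene. The design holds 1 group of 2 libraries, numbered as biological replicates 1 and 2, and no comparison group. Both carry the same donor identifier with different biosample identifiers, so the spread between them may be technical. No condition is compared below: each difference is between 2 libraries of 1 group, and each test asks only whether it exceeds counting error.

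miR-143 and miR-145 are processed from 1 primary transcript that serum response factor and its partner myocardin switch on in smooth muscle. They repress regulators such as Klf4, Klf5 and Elk1, and so help vascular smooth muscle cells to stay contractile rather than proliferate. Mice without the cluster have thin arterial walls with poorly contractile muscle cells. In the heart the pair is known mainly from the smooth muscle of coronary vessels, with pericytes and fibroblasts as lesser sources, while miR-145b is a mouse gene named for its likeness to miR-145a.

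On build mm10, Mir143 (ENSMUSG00000065445.3) lay on the minus strand of chromosome 18 from 61649196 to 61649258, and Mir145a (ENSMUSG00000065592.2) from 61647825 to 61647894 on the same strand. A gap of 1301 bases separated them, with Mir143 upstream in the direction of transcription. Both were intergenic in the annotation. The lincRNA gene Carmn, a noncoding RNA of the smooth muscle and cardiac lineage, ended 366 bases upstream of Mir143 on the same strand. The lincRNA gene Bvht, known from cardiac mesoderm of the mouse embryo, lay 352 bases from Mir145a on the opposite strand. Mir145b (ENSMUSG00000098366.1) lay apart on the same chromosome, from 69022199 to 69022273 on the minus strand, 7374 kb from Mir145a. The gene annotated nearest to Mir145b, the lincRNA gene 4930546C10Rik, was 70670 bases away.

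**Figure D1:**
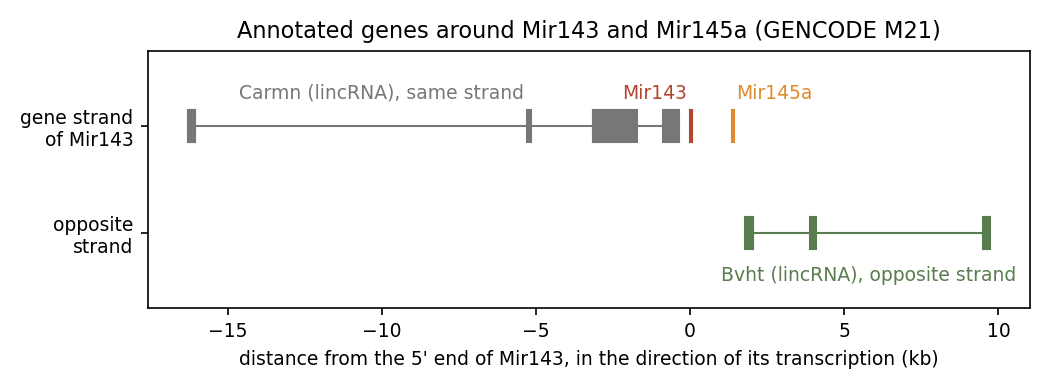
Annotated genes around Mir143 and Mir145a, with exons as boxes and introns as lines. The x axis gives the distance in kb from the 5' end of Mir143 in the direction of its transcription, the upper track holds the strand of Mir143 and the lower track the opposite strand. Mir145a follows Mir143 on 1 strand, Carmn ends 366 bases upstream of Mir143, and Bvht runs on the other strand.

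By reads unique to 1 locus, Mir143 was among the most abundant microRNA genes of the heart libraries. Mir145a was about an order of magnitude lower, and Mir145b was at the limit of detection. Levels are counts per 1000000 reads assigned to microRNA genes (CPM) on the strand of the gene. They are not divided by gene length, because a read of a small RNA spans the mature microRNA. Assigned reads came to 2877511 in replicate 2 and 4186560 in replicate 1, so that a floor of 3 counts, up to which a count of 0 leaves room, equals 1.04 CPM in replicate 2 and 0.717 CPM in replicate 1. Multimapping reads were credited to no gene and made up 43.2% of the reads of replicate 2 and 42.4% of those of replicate 1. Levels, ranks and shares of assigned reads therefore leave out reads that copies of a gene share. Genes with copies at other loci, such as Mir1a-2, can rank too low, so the ranks below are not ranks of the microRNAs. The heart markers Mir499 and Mir208a, hosted by myosin genes of heart muscle, were present, with means of 4202 ± 826 CPM and 1356 ± 399 CPM (SD, n = 2).

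Mir143 had 146024 counts in replicate 2 and 130826 in replicate 1. Its level was 50747 CPM in replicate 2, with an exact Clopper-Pearson 95% interval of 50493 to 51001. In replicate 1 it was 31249 CPM (31083 to 31416). The mean level was 40998 ± 13787 CPM (SD, n = 2). Mir143 ranked 8 of all genes in replicate 2, 12 in replicate 1 and 9 by mean level, so it stood near the top in both libraries. The intervals lie far apart, but they measure counting error alone and not the spread between libraries. The intervals are for counts of reads and not of molecules.

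The neighbours of Mir143 differed from it in mean level by less than its SD between the libraries. Just above stood Mirlet7i with 45311 ± 7860 CPM and Mir139, a microRNA hosted by Pde2a, with 44631 ± 12698 CPM (SD, n = 2). Just below stood Mir99a with 33652 ± 4942 CPM and Mir22, a microRNA of cardiac hypertrophy, with 31817 ± 32150 CPM (SD, n = 2). Mirlet7i (50869 CPM in replicate 2 and 39754 CPM in replicate 1) and Mir139 (53610 and 35652 CPM) were above Mir143 in both libraries. Mir99a and Mir22 were above Mir143 in replicate 1 and below it in replicate 2. Mir99a had 30158 CPM in replicate 2 and 37147 CPM in replicate 1, and Mir22 had 9084 CPM and 54550 CPM in the same order.

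Mir145a had 16078 counts in replicate 2 and 6959 in replicate 1. That is 5587 CPM in replicate 2 (exact 95% interval 5502 to 5674), against 1662 CPM in replicate 1 (1623 to 1702), with a mean of 3625 ± 2776 CPM (SD, n = 2). It ranked 27 in replicate 2, 49 in replicate 1 and 35 by mean level. The SD was close in size to the mean, so the order of Mir145a among its neighbours was not fixed by these libraries. Mir155, a gene of activated leukocytes, with 3721 ± 566 CPM and Mir100 with 3715 ± 531 CPM stood just above it. Mir322, a gene of the mir-15 seed group, with 3265 ± 186 CPM and Mir93, a gene of the Mir106b-25 cluster, with 2806 ± 539 CPM stood just below (SD, n = 2).

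Mir145b had 3 counts in replicate 2 and 0 in replicate 1. The 3 counts equal 1.04 CPM (exact 95% interval 0.215 to 3.05), and the 0 allows up to 0.717 CPM by the floor of 3 counts or 0.881 CPM by the upper end of the same kind of interval. Both libraries were at or under the floor of 3 counts, so no ratio is given and the gene entered no test. These counts cover only reads unique to the Mir145b locus and set no upper limit on reads that it shares with another locus.

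None of the 3 genes had a read on the opposite strand, with 0 antisense counts for each in both libraries. Their counts regardless of strand were the same as those on the gene strand, 146024 and 130826 for Mir143 in replicates 2 and 1. No read of theirs was lost to an overlapping gene, although ignoring strand made 6.38% of the reads of replicate 2 and 9.67% of those of replicate 1 ambiguous.

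**Figure D2:**
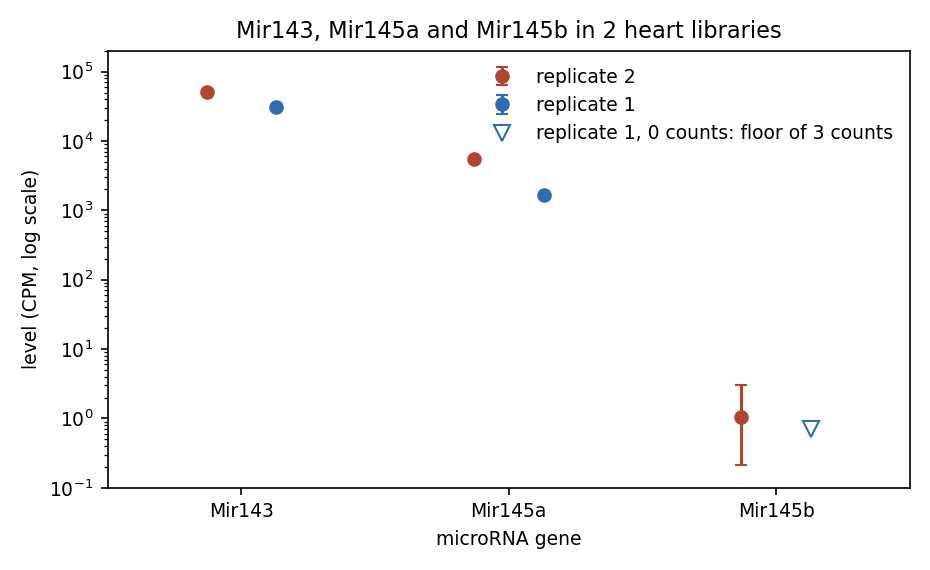
Level in CPM (log axis) of the 3 genes in replicate 2 (red) and replicate 1 (blue). Bars are exact 95% intervals for counting error, hidden by the points for Mir143 and Mir145a, and the open triangle marks the floor of 3 counts where the count was 0. Mir143 sits at 50747 and 31249 CPM, Mir145a at 5587 and 1662 CPM, and Mir145b at 1.04 CPM in replicate 2 with 0 counts in replicate 1.

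Together the 3 genes held 5.63% of assigned reads in replicate 2, with an exact 95% interval of 5.61 to 5.66. They held 3.29% in replicate 1 (3.27 to 3.31), and the mean share was 4.46% ± 1.66 (SD, n = 2). Mir143 supplied 90.1% of this sum in replicate 2 and 94.9% in replicate 1. Mir145a supplied 9.92% in replicate 2 and 5.05% in replicate 1. Of all reads, unassigned ones included, the 3 genes held 1.82% in replicate 2 and 1.04% in replicate 1. In bulk tissue, fewer cells of a type and less RNA per cell cannot be told apart.

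Within each library Mir143 exceeded its cluster partner Mir145a, by an amount that differed between the libraries. Mir143 had 9.08 times the counts of Mir145a in replicate 2 (exact 95% interval 8.94 to 9.23), against 18.8 times in replicate 1 (18.4 to 19.3). This ratio is taken within a library and depends on no scaling. The log2 ratio of replicate 2 over replicate 1 was larger by 1.05 for Mir145a than for Mir143 (95% interval for counting error 1.01 to 1.09), a 2.07-fold difference. In Fisher's exact test of the 4 counts, two-sided, the p-value was below the smallest number the software can hold. The 2 genes of the cluster thus differed between the libraries by unequal amounts beyond counting error.

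Among microRNA genes that lie close together, the difference between Mir143 and Mir145a was in the upper part of the range. Over all 60 pairs of adjacent genes on 1 strand with a gap of up to 10 kb and both genes tested, the median difference of the log2 ratios was 0.69, and the middle of the distribution ran from 0.33 to 1.05. The pair Mir143 and Mir145a ranked 15 of 60, so 14 other pairs differed more. Next above it stood Mir500 and Mir501 with a difference of 1.14, and next below Mir411 and Mir299a of the imprinted Dlk1-Dio3 region with 1.05. The widest differences were 3.13 for Mir194-1 and Mir215 and 2.54 for Mir497 and Mir195a, and the narrowest was 0.04 for Mir191 and Mir425. With at least 50 counts in both libraries required of each gene, 7 of 42 pairs (16.7%) reached the difference of Mir143 and Mir145a.

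In level the pair was more uneven than the median pair. The geometric mean of its 2 level ratios was 13.1-fold, which ranked 19 of 60, against a median of 6.09-fold over all pairs. The next more uneven pair was Mir191 and Mir425 with 14.5-fold, and the next less uneven was Mir23b and Mir27b with 12.9-fold. Mir191 and Mir425 had almost the same level ratio as Mir143 and Mir145a but kept it in both libraries. Levels of genes with copies at other loci cover unique reads only, so the level ratios of such pairs are not ratios of the microRNAs. Mir143 and Mir145a were both higher in replicate 2, and the 2 genes moved the same way in 30 of the 60 pairs.

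**Figure D3:**
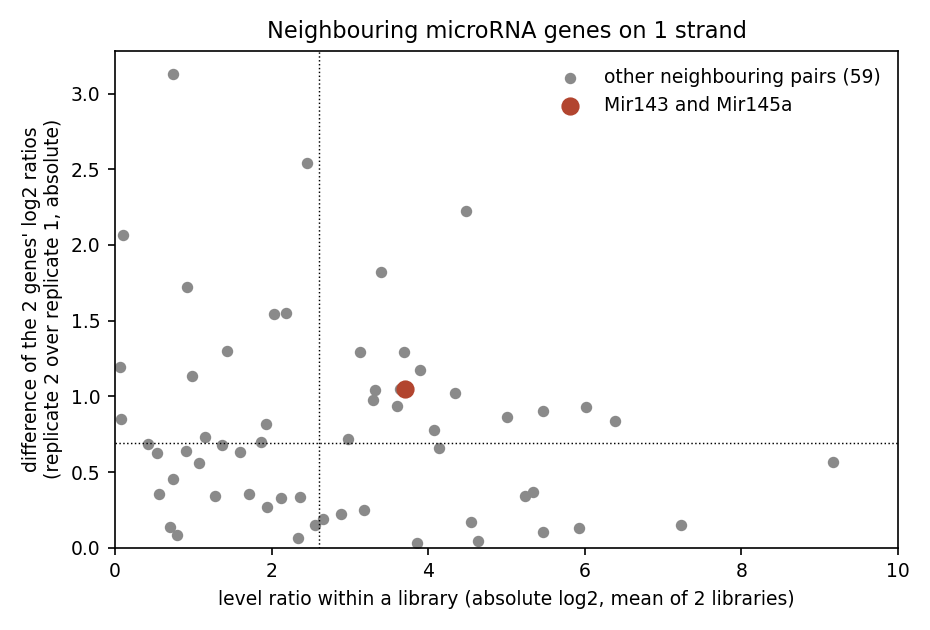
Each point is a pair of adjacent microRNA genes on 1 strand. The x axis gives the absolute log2 ratio of their levels within a library (mean of both libraries), the y axis the absolute difference of their log2 ratios of replicate 2 over replicate 1, and dotted lines mark the medians of 2.61 and 0.69. The pair Mir143 and Mir145a (red) lies at 3.71 and 1.05, beyond both medians and within the cloud of the other 59 pairs.

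Between the libraries, both detectable members were higher in replicate 2. Mir143 was 1.71-fold higher (log2 ratio 0.77, exact 95% interval 0.76 to 0.78) and Mir145a 3.53-fold higher (log2 ratio 1.82, interval 1.78 to 1.86), after TMM scaling of the libraries. In exact binomial tests given the scaled totals, two-sided with Benjamini-Hochberg adjustment over 309 genes, both p-values were below the smallest number the software can hold. Such a test compares these libraries with counting error, and most genes exceeded it: 196 of 309 genes (63.4%) did, of which 109 (35.3% of those tested) were higher and 87 (28.2%) lower in replicate 2. At least 2-fold higher were 17 of the tested genes (5.50%), Mir145a among them and Mir143 not, and 40 genes (12.9%) were at least 2-fold lower. A call beyond counting error is therefore no mark of these genes.

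The ratios of both genes were in the upper part of the range. Of the 309 genes tested, 4 had a higher ratio than Mir145a and 35 a higher ratio than Mir143. The filter on counts removes genes that are low in 1 library, and with them some of the widest ratios. Among the 265 genes with a mean of at least 10 CPM, whether tested or not, 8 were above Mir145a and 35 above Mir143. Those above but not tested were Mir302a, Mir302b, Mir302c and Mir9-3. The median log2 ratio of the 309 genes was 0.01, and the median gene differed 1.43-fold in either direction. Counting error is small at high levels, so the 62 genes with a mean of at least 1000 CPM give the closer comparison. Among them, 1 gene was above Mir145a and 8 were above Mir143, and the median gene differed 1.44-fold in either direction. Scaled with DESeq2 size factors, the log2 ratios were 0.62 for Mir143 and 1.67 for Mir145a, the median of all genes lay 0.15 lower, and 83 genes were called higher and 103 lower.

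**Figure D4:**
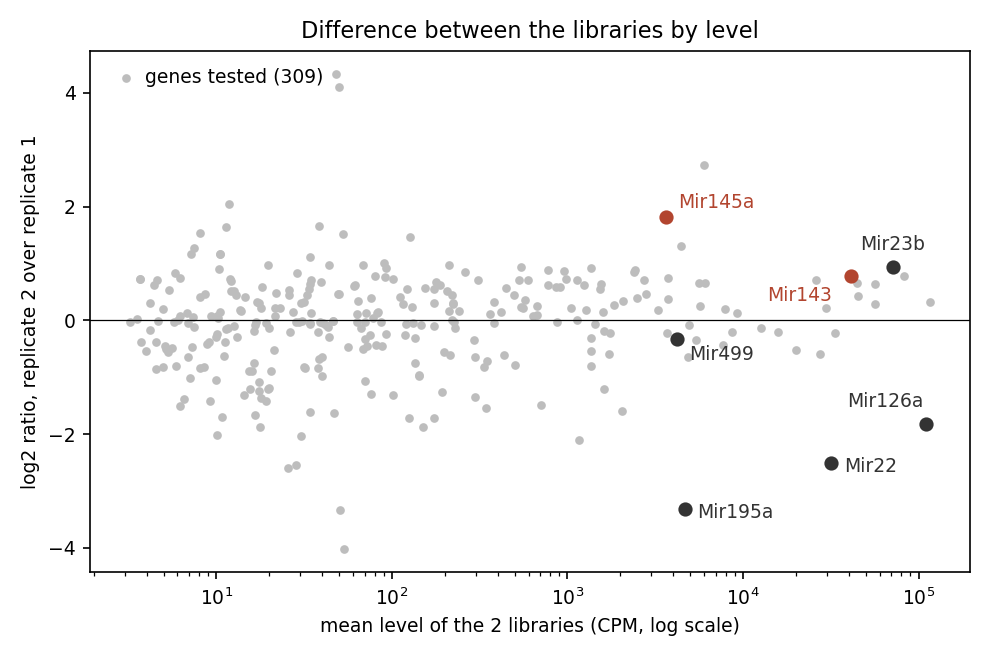
Log2 ratio of replicate 2 over replicate 1 (y axis) against the mean level in CPM (x axis, log scale) of the 309 genes tested. Mir145a at 1.82 and Mir143 at 0.77 are in red, and the other labelled genes in black. Mir145a lies near the top of the cloud at its level, while Mir126a, Mir22 and Mir195a lie far below 0.

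Above the cuts on level given below, genes with ratios like that of Mir143 were easy to find and genes like Mir145a were not. With likeness measured as the distance between log2 ratios over the 2 libraries, the 5 genes nearest to Mir143 among 60 with a mean of at least 1000 CPM were at most 0.0637 away from it. They were Mirlet7b (log2 ratio 0.79), Mir320 (0.75), Mir676 (0.72), Mir674 (0.71) and Mirlet7d (0.71). For Mir145a, among 130 genes with a mean of at least 100 CPM, the nearest was Mir203, a gene of surface epithelium, at 1.46 and a distance of 0.36. Mir744 followed at 1.31, and Mir142 (0.97), Mir23b (0.94) and Mir107 (0.93) were further off. Under the cut of 100 CPM, Mir122 (1.66) and Mir103-2 (1.64) were nearer to Mir145a, at mean levels of 38.2 and 11.4 CPM. With 2 libraries a pattern is a single ratio, so such likeness is a description only.

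Markers of other cell types moved between the libraries too, and several moved the other way. Among all 309 genes, 35.3% were higher and 28.2% lower in replicate 2, so calls of either kind were common. All 3 cardiomyocyte markers were lower in replicate 2, with a summed level of 4715 CPM in replicate 2 and 6466 CPM in replicate 1. Both erythroid markers were lower, at 230 CPM summed in replicate 2 and 755 CPM in replicate 1. All 4 gut and kidney markers were lower, at 33.4 CPM summed in replicate 2 and 193 CPM in replicate 1. By contrast, all 5 leukocyte markers were higher, at 8349 CPM summed in replicate 2 and 5998 CPM in replicate 1. Of the 3 endothelial markers, Mir221 and Mir222 were higher and Mir126a, which held nearly all their counts, was lower, so the sum was 49984 CPM in replicate 2 and 176135 CPM in replicate 1. Of the 5 fibroblast markers, Mir21a was higher, Mir214 lower, Mir199b did not pass (log2 ratio -0.85), Mir199a-2 was not tested and Mir199a-1 had 0 counts. Their sum was 3732 CPM in replicate 2 and 5305 CPM in replicate 1. Reads that the Mir199 genes share with each other were credited to none of them, so the Mir199 counts cover unique reads only. Of the 6 neuron markers none was tested and all but Mir9-1 and Mir9-3 had 0 counts, with sums of 22.9 CPM in replicate 2 and 0.717 CPM in replicate 1. Copies of Mir124a, of Mir9 and, among the gut and kidney markers, of Mir194 have the same limit of unique reads. A count of 0 for such a gene does not show absence. The part of these cell types in the ratios of Mir143 and Mir145a was not tested.

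Set against single markers within a library, the standing of Mir143 differed most against markers that were lower in replicate 2. This holds by arithmetic, because the change of a count ratio restates the difference of the log2 ratios of both genes. The values below are a description of levels and no separate result. Mir143 had 14.0 times the counts of the heart muscle gene Mir499 in replicate 2 and 6.53 times in replicate 1. Against the endothelial gene Mir126a it had 1.08 times the counts in replicate 2 and 0.179 times in replicate 1, so the order of these vessel wall genes turned between the libraries. Against Mir221, which both endothelium and smooth muscle use, Mir143 kept nearly the same ratio, 16.5 in replicate 2 and 17.9 in replicate 1. Mir145a had 1.54 times the counts of Mir499 in replicate 2 and 0.347 times in replicate 1, and it passed Mir221 likewise, with ratios of 1.81 and 0.954.

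Other microRNAs known to favour the contractile state of vascular smooth muscle went in both directions. The list has 16 genes, Mir143 and Mir145a among them, and 12 passed the filter on low counts. In replicate 2, 6 of the 12 were higher and 4 lower, while 2 missed the threshold, beside 35.3% higher and 28.2% lower among all 309 genes. The median log2 ratio of those tested was 0.10, beside 0.01 over all 309 genes. The list's sum was 171632 CPM in replicate 2 and 161773 CPM in replicate 1. These summaries include Mir143 and Mir145a, which are counted among the 6 higher genes. Mir143, Mir145a and Mir145b supplied 56335 CPM of the sum in replicate 2 and 32911 CPM in replicate 1. Without these genes the list's sum was lower in replicate 2 than in replicate 1. Mir23b, which restrains smooth muscle migration and proliferation, had 92953 CPM in replicate 2 and 50745 CPM in replicate 1 (log2 ratio 0.94). Mir490, hosted by the muscarinic receptor gene Chrm2, had 329 CPM in replicate 2 and 192 CPM in replicate 1 (0.85). Mir322 (0.19) and Mir10a (0.14) were also higher, but not past the test with DESeq2 size factors, where Mir10a changed sign to -0.01.

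The 4 lower genes of the list included both of its widest changes. Mir195a, which restrains the cell cycle, had 806 CPM in replicate 2 and 8500 CPM in replicate 1 (log2 ratio -3.33, exact 95% interval -3.39 to -3.27). Mir22 had a log2 ratio of -2.51 (interval -2.53 to -2.50), Mir34a, a p53 target, -0.64 and Mir100 -0.22. The muscle genes Mir1a-2 (-0.04) and Mir133b (0.05) did not pass the test. Their copies Mir1a-1, Mir133a-1 and Mir133a-2 had at most 9 counts in a library, which cover reads unique to 1 locus only. The same limit holds for Mir1a-2, whose ratio is therefore not that of the microRNA.

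The list of microRNAs known to favour proliferating smooth muscle cells held more genes that were higher in replicate 2 than lower. Of its 14 genes, all tested, 9 were higher and 3 lower, 2 missed the threshold, beside 35.3% higher and 28.2% lower among all 309 genes. The median log2 ratio was 0.47, beside 0.01 over all genes. Most tested genes of both lists had at least 50 counts in each library. Among the 210 genes with such counts, 98 were higher and 60 lower, with a median log2 ratio of 0.14. Mir221 (0.89) and Mir222 (0.73), which repress the cell cycle inhibitors p27 and p57, were higher, as were Mir31 (0.71), Mir17 (0.73), Mir20a (0.63), Mir21a (0.39), Mir155 (0.38), Mir24-1 (0.55) and Mir26a-1 (4.32). Mir214 (-1.59), Mir24-2 (-1.26) and Mir130a (-0.19) were lower. Mir26a-2 (0.12) and Mir146 (0.01) did not pass, although Mir146 was called lower with DESeq2 size factors, at -0.14. The whole list held 16917 CPM in replicate 2 and 15680 CPM in replicate 1, which was below the level of Mir143 alone in each library. Mir26a, Mir24 and similar genes have copies elsewhere, and their counts cover unique reads only.

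**Figure D5:**
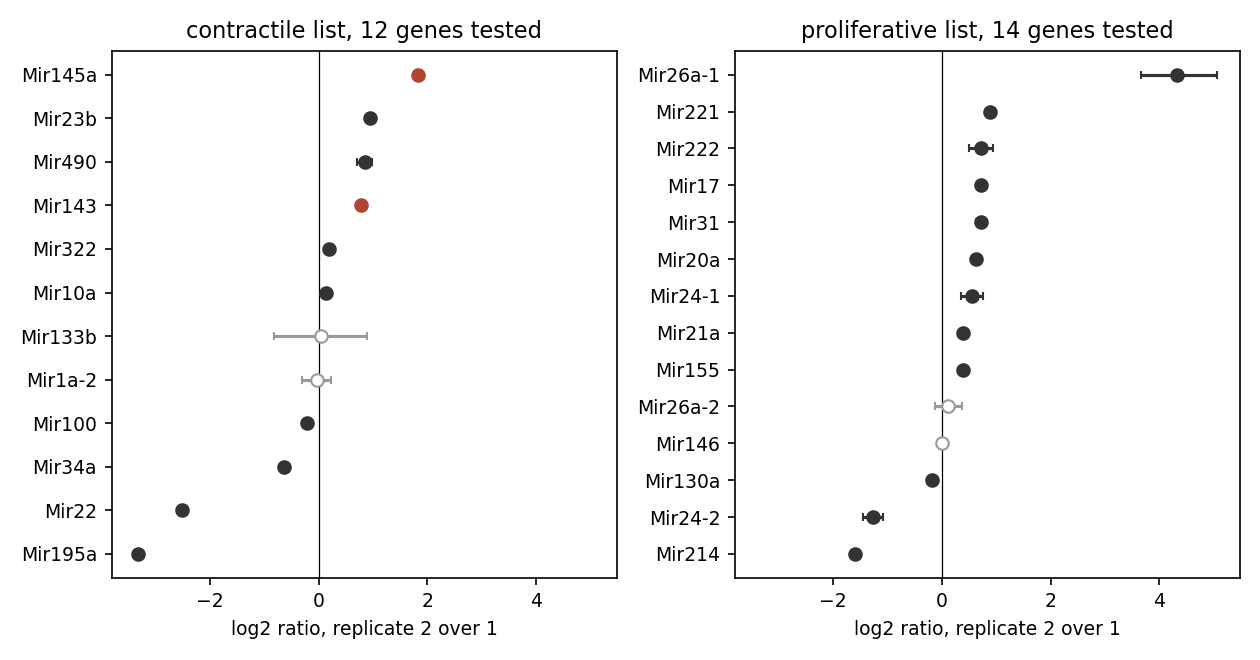
Log2 ratio of replicate 2 over replicate 1 (x axis) for the tested genes of the contractile list (left, 12 genes) and the proliferative list (right, 14 genes). Bars are exact 95% intervals for counting error, often hidden by the points, open points did not pass the test, and Mir143 and Mir145a are in red. Both lists hold genes on either side of 0, and Mir145a leads the contractile list at 1.82.

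Some genes of these lists share a seed, the bases that set which messages a microRNA binds, and the sequences of 5 such pairs are shown to set shared seeds beside the ratios. Mature sequences from RefSeq (GRCm38.p6) were found for 24 of the 31 list symbols. They run 5′ to 3′ with the seed, bases 2 to 8, in capitals. The counts are per gene and do not separate the arms of a precursor.
miR-221-3p: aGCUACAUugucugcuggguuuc
miR-222-3p: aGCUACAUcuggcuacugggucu
miR-17-5p: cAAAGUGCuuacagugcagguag
miR-20a-5p: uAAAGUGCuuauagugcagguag
miR-195a-5p: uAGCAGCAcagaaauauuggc
miR-322-5p: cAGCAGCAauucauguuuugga
miR-24-3p: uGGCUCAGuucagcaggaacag
miR-26a-5p: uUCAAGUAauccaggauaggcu
Mir221 and Mir222, neighbours on the X chromosome, had close log2 ratios of 0.89 and 0.73, and Mir17 and Mir20a of 1 cluster had 0.73 and 0.63. Mir195a and Mir322, which share a seed but lie on chromosomes 11 and X, had -3.33 and 0.19. Mir24-1 and Mir24-2 encode the same miR-24-3p and had 0.55 and -1.26, and Mir26a-1 and Mir26a-2 encode the same miR-26a-5p and had 4.32 and 0.12. For these 4 genes only reads unique to 1 locus were counted. Full-length reads of miR-24-3p and miR-26a-5p match both loci and were credited to neither gene. The ratios of these 4 genes are therefore not ratios of those sequences.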

How the data were processed

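MicroRNA sequencing libraries from heart, 2 replicates of 1 group, were analysed from the deposited tables of raw read counts per microRNA gene. The build (mm10) and annotation (M21) are named in the deposited readme, while the aligner and counter are not stated there or in the labels. Of 3 columns (regardless of strand, gene strand, opposite strand) the gene strand was used. The 4 rows of unmapped, multimapping, unassigned and ambiguous reads, 67.8% of 8930289 reads in replicate 2 and 68.4% of 13233055 in replicate 1, stayed out of totals and tests. Gene symbols and coordinates came from GENCODE M21.

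CPM were computed over gene rows. Genes kept by filterByExpr (minimum count 10) in edgeR 4.0.16 (R 4.3.3) were TMM-scaled and tested by exact binomial tests, adjusted after Benjamini and Hochberg, at a threshold of 0.05. With each library as its own arm, a comparison of replicate 2 with replicate 1 leaves no residual for a quasi-likelihood test. The step was tested on simulated counts that varied by counting error only, apart from set fold changes. That simulation does not show how the test behaves with the wider spread of these libraries. DESeq2 1.42.0 gave alternative size factors. Python 3.11.15 and scipy 1.17.1 were used. The libraries were not duplicates, with a chi-square of 830 per degree of freedom over 709 genes. The alternatives covered the strand column, denominators, scaling, filters, the gap between neighbours and leaving out a replicate.

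The members, lists and tests were chosen with earlier results of these data known. Named genes were the members, the lists, the 2 genes on either side in level, the 5 nearest in log2 ratio, annotated neighbours within 10 kb and pairs adjacent in rank. The gene nearest to Mir145b, the pairs at the extremes, the genes that share a seed and the untested genes above Mir145a were named after their values were seen. The same holds for Mir122 and Mir103-2.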

Additional observations from a re-analysis of the deposited data

How the results depend on the processing

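Every direction reported for Mir143 and Mir145a held under each alternative that gives a ratio, as did the side of the threshold. Their log2 ratios ranged from 0.62 to 0.77 and from 1.67 to 1.82 over the scalings, filters and strand columns. A change of filter kept the same scaling factors, so it could not move these log2 ratios. Per 1000000 of all reads in place of assigned reads, Mir143 averaged 13119, Mir145a 1163 and Mir145b 0.168, and the share of the 3 genes was 1.43%. Leaving out a replicate gave 31249 to 50747 CPM for Mir143, 1662 to 5587 for Mir145a, 0 to 1.04 for Mir145b, 3.29% to 5.63% for their share, 9.08 to 18.8 for the ratio of Mir143 to Mir145a and rank 8 to 12 for Mir143. Pairs with a difference of log2 ratios at least as large as that of Mir143 and Mir145a numbered 7 of 42 (16.7%) with a minimum count of 50, instead of 15 of 60, and the cause was not tested. Genes above Mir145a in log2 ratio numbered 8 instead of 4 when kept by mean level, an alternative chosen after seeing the data that adds untested genes. Of 62 alternative values for 18 results, 57 kept their direction and side of the threshold, or for untested values moved by less than 1 SD between the libraries, or for counts by less than 1.5-fold, and 5 moved further. Mir145a and Mir145b passed this limit only through their wide SD, since all 3 levels fell alike with all reads as denominator. Leaving out a replicate moves a mean of both libraries by less than 1 SD whatever the values. The levels, shares and count ratios without a replicate therefore had to keep within the limit and are no sign of stability. A ratio between libraries cannot be had without a replicate. No paired analysis was possible because the design holds 1 group. Depth limits Mir145b, whose counts lay at or under the floor of 3.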
